A study of Malus domestica with 34 samples.

Results

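Root libraries of apple seedlings (Malus domestica) were compared between drought and well-watered plants at 2 samplings in the year of the droughts. The members were taken by tissue, regime and sampling: 6 drought libraries and 6 well-watered libraries, together 12 of the 34 libraries of the series. All plants were seedlings of the 'Golden Delicious' line GDDH18, described in the labels as a double haploid, and the labels name no transgene or mutant. Drought plants (61 in the regime) had gone through 1 drought at the first sampling and 3 droughts at the third. Each drought held the soil at 45% of field capacity for 3 weeks and was followed by 3 weeks of rewatering. Well-watered plants (64 in the regime) were kept near 80% throughout and were sampled at the same times. The regimes began at an age of 12 weeks. Sowing was staggered by a week over 3 blocks. Every block gave 1 drought and 1 well-watered root library at each sampling, so the data form 6 within-block pairs. The question was whether roots show a drought effect that is shared by both droughts, once block and sampling are taken into account.

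Roots sense the drying of soil directly. In plants, water deficit raises the hormone abscisic acid, which acts through receptors and protein kinases on transcription factors of stress genes. Roots commonly adjust water channels, compatible solutes, cell wall loosening and nutrient uptake. The deposited table names its genes only by identifier, so the genes below are described by their values and not by a function. These are bulk tissues, in which fewer cells of a type and less RNA per cell cannot be told apart.

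The 12 libraries held 30531790 to 55124383 counts in drought roots and 29963017 to 60194325 counts in well-watered roots. A list of 194 genes abundant in leaf and near absent from next-year root took 0.00462% to 0.0115% of counts in drought roots and 0.00530% to 0.0179% in well-watered roots, against 5.69% to 15.3% in leaf libraries. A list of 27 genes with the reverse pattern took 0.161% to 0.298% in drought roots and 0.162% to 0.327% in well-watered roots, against at most 0.00165% in leaf. These lists were drawn from libraries outside the 12. In each of the 12 the leaf list lay below, and the root list above, its level in every leaf library.

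A single pair went against the rest, the libraries labelled drought and well-watered of block 2 at the first sampling. Over 24697 genes with a mean log2 CPM (counts scaled to a common library size) of at least 1, the library labelled drought of that block was most similar to the well-watered library of block 3 (Spearman's rho 0.987). The library labelled well-watered was most similar to the drought library of block 3 (rho 0.982). Over all 12, rho ran from 0.871 to 0.987, and for 2 of the 12 the most similar library of the same sampling came from its own regime. On the first principal component, with 40.0% of the variance, the drought library scored above the well-watered library of its block in 5 of the 6 pairs. The exception was the same block, with -26.5 for the library labelled drought and 64.0 for the library labelled well-watered. In leaf at the first sampling, block 2 did not stand against the others. The within-block differences of 23231 leaf genes correlated at 0.66 between blocks 1 and 2, 0.70 between blocks 1 and 3 and 0.62 between blocks 2 and 3, as a description across genes that are not independent. Whether the libraries of that root pair were exchanged was not tested, and the tests across genes below are given with and without them.

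**Figure D1:**
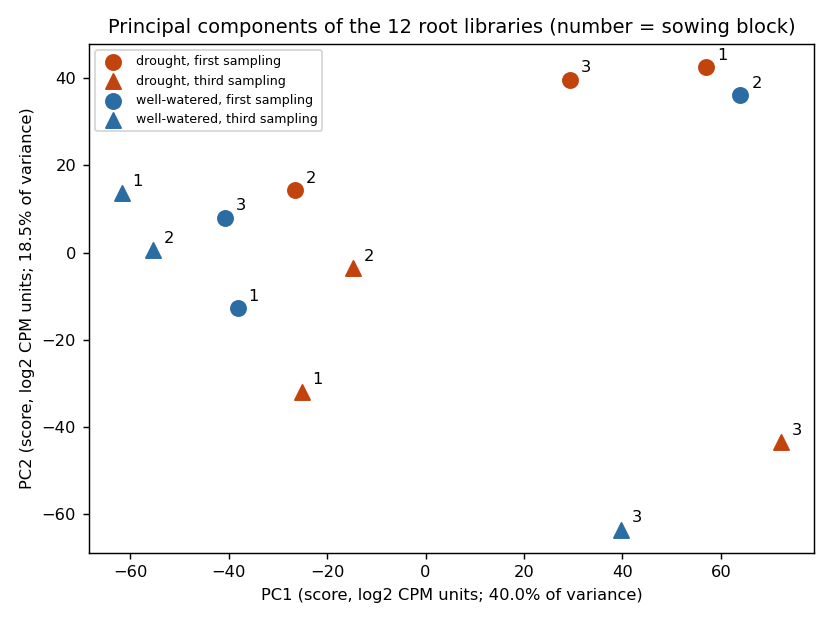
First and second principal component scores (log2 CPM units) of the 12 root libraries over 24697 genes, with drought in orange, well-watered in blue, and the sowing block as a number. The library labelled drought of block 2 at the first sampling lies at -26.5 on the first component, near the well-watered libraries of that sampling. Its well-watered partner at 64.0 lies near the other drought libraries of that sampling. The third-sampling drought libraries of blocks 1 and 2 also lie below 0, at -25.2 and -14.7.

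With all 6 pairs in the fit, no root gene passed the test for a difference between drought and well-watered. Of 32676 genes tested with edgeR's quasi-likelihood test, 0 (0%) had a Benjamini-Hochberg adjusted p under 0.05, and the smallest adjusted p was 0.926. DESeq2 and limma voom likewise made 0 calls. Before adjustment, 1366 genes (4.18%) had p under 0.05, 733 of them higher (2.24%) and 633 lower (1.94%) in drought. The intervals that follow are for the average over all 6 pairs, including the pair that went against the rest. The median standard error of a log2 change was 0.15, and for 21932 of 24696 genes above the level limit (88.8%) the 95% interval lay inside a 2-fold change in either direction. The median size of the change was 1.09-fold. Without that pair the share inside 2-fold was 86.5% and the median change 1.12-fold. Changes of at least 2-fold then numbered 314 higher and 328 lower, against 152 and 111 with all 6 pairs. With all 6 pairs, precision changed with level: the share inside 2-fold was 81.5% at a mean log2 CPM of 1 to 3, 93.4% at 5 to 7 and 88.2% at 7 and above. Of the 50 most abundant root genes, 9 had a positive log2 change, against 51.7% of the 28744 genes tested in both root and leaf. Changes of the 50 ran from -0.68 to 1.14 with a median of -0.18, and 1 had an unadjusted edgeR p under 0.05. Their median standard error was 0.24, and for 32 of the 50 the interval lay inside 2-fold.

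The 2 identifiers of smallest p in each direction, among genes whose difference had the same sign in all 6 pairs, all had an edgeR adjusted p of 0.926 and are given as values that did not pass. MD01G1178800 ranged from 10.5 to 30.4 CPM in drought roots, with a median of 23.1, and from 6.20 to 20.1 CPM in well-watered roots, with a median of 16.4. The groups overlapped and levels differed between blocks and samplings, but within a block the drought library lay 1.25-fold to 1.69-fold above its partner. The fitted log2 change was 0.51 (SE 0.10). MD04G1047500 ranged from 5.78 to 13.2 CPM in drought roots, with a median of 9.69, and from 2.93 to 11.0 CPM in well-watered roots, with a median of 5.77. Its within-block ratios ran from 1.19 to 1.96, and its log2 change was 0.67 (SE 0.14).

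On the lower side, MD02G1132400 ranged from 14.0 to 47.3 CPM in drought roots, with a median of 37.1, and from 20.4 to 78.6 CPM in well-watered roots, with a median of 48.4. The drought library held between 0.602 and 0.875 of its partner's level, and the log2 change was -0.47 (SE 0.10). Both third-sampling libraries of block 3 were low for this gene, at 14.0 CPM in drought and 20.4 CPM in well-watered. MD14G1159100 ranged from 33.7 to 81.4 CPM in drought roots, with a median of 44.7, and from 53.7 to 119 CPM in well-watered roots, with a median of 94.3. The drought library held between 0.378 and 0.811 of its partner's level, with a log2 change of -0.77 (SE 0.16). For these 4 genes the pair of block 2 at the first sampling had the sign of the others, as the naming rule required.

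**Figure D2:**
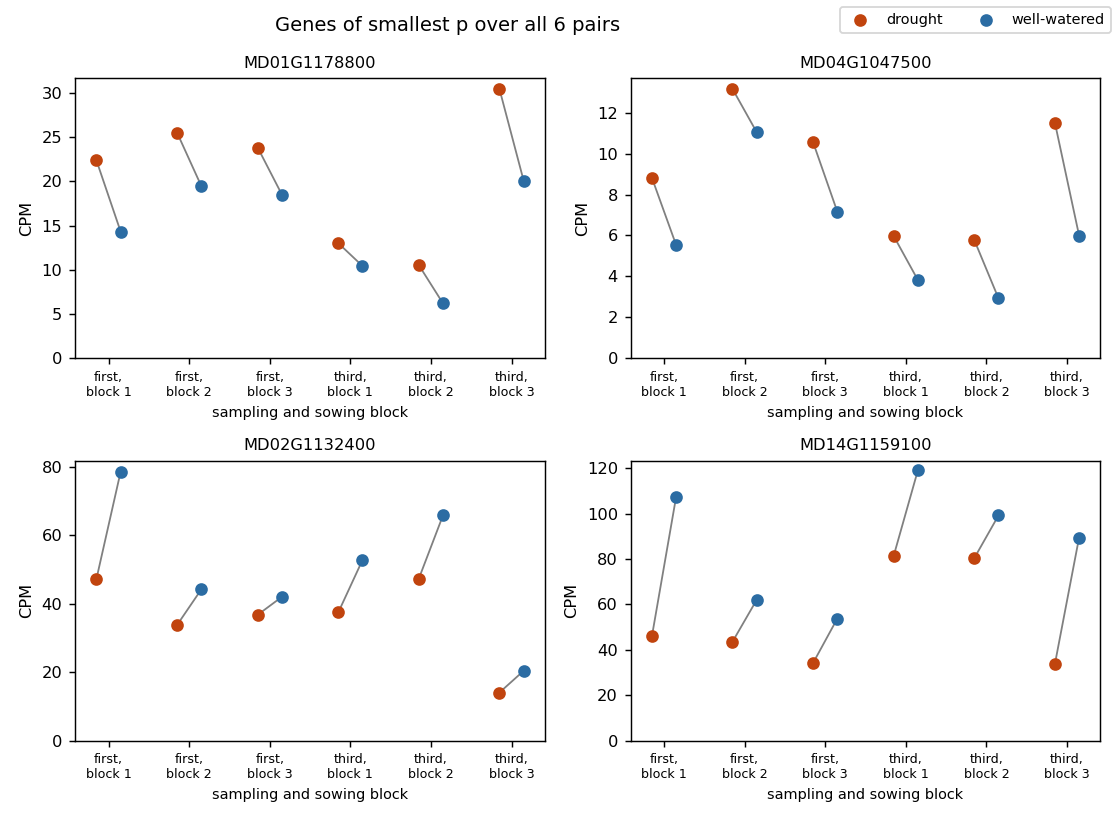
CPM of the 4 named genes of the fit to all 6 pairs, with the drought library (orange) left of its well-watered partner (blue) and a line joining each within-block pair. The line slopes the same way in all 6 pairs of a gene, while the levels of both regimes shift between samplings and blocks, so the groups overlap.

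Few genes shared a direction over the pairs. Same-signed differences in all 6 pairs were found for 696 of the 24697 genes (2.82%), 362 higher (1.47%) and 334 lower (1.35%) in drought. Random signs would give a share of 0.03125 over 6 pairs, so the 2.82% lies near that level. At least 2-fold differences in all 6 pairs were found for 0 genes, although single pairs held many. The first-sampling pairs of blocks 1, 2 and 3 had 1680, 1256 and 833 genes at least 2-fold higher in the library labelled drought, and 1934, 1307 and 708 at least 2-fold lower. The third-sampling pairs had 1082, 577 and 391 higher and 872, 281 and 711 lower. Across genes, the differences of the 5 other pairs correlated with each other at 0.05 to 0.54. Those of block 2 at the first sampling correlated negatively with each of the 5, at -0.83 to -0.18, most strongly with block 3 of the same sampling. No library is shared between the pairs. The genes are not independent, and these values are a description.

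**Figure D3:**
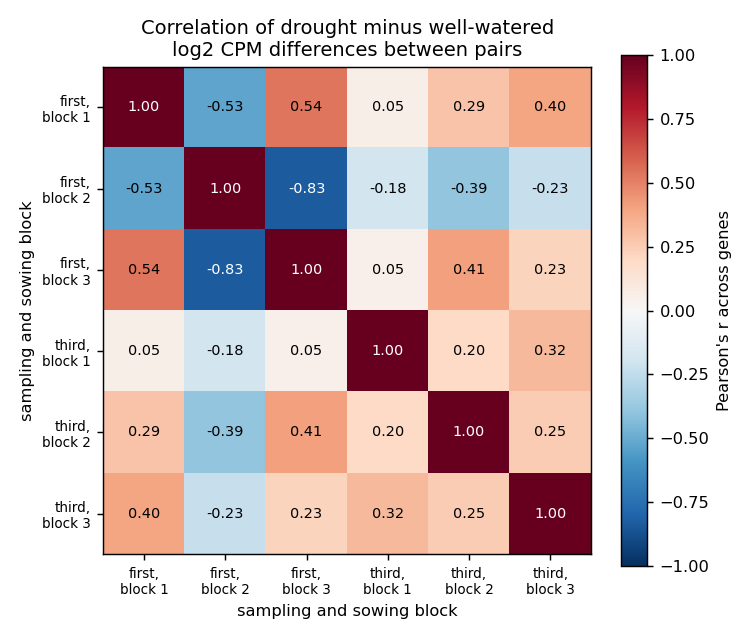
Pearson's r across 24697 genes between the within-block log2 CPM differences (drought minus well-watered) of the 6 root pairs. The row and column of block 2 at the first sampling are negative apart from the diagonal, down to -0.83, and the values among the other 5 pairs are positive, up to 0.54.

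Without both libraries of that pair, the same fit came close to its threshold but did not pass it in edgeR. Of 32958 genes, 0 (0%) had an adjusted p under 0.05, and the smallest was 0.0654. Before adjustment, 4696 genes (14.2%) had p under 0.05, 2303 of them higher (6.99%) and 2393 lower (7.26%) in drought. Limma voom called 0, with a smallest adjusted p of 0.0545. DESeq2 called 1368 of 31559 genes (4.33%), 620 higher (1.96%) and 748 lower (2.37%), with median changes of 2.03-fold and 1.96-fold. The pair was left out because earlier results of these data had shown it to go the other way, so a larger response in the other 10 libraries is not independent evidence of an effect. Leaving out any other pair instead left 0 calls, with 549 to 1650 genes under 0.05 before adjustment. Those fits all kept the pair that went the other way. Among the 10 libraries, single libraries of the third sampling also moved the count. The edgeR count of calls was 15 without the drought library of block 3 and 18 without its well-watered partner, 4 without either library of block 1, and 1 without either library of block 2. Averaged over the 24697 genes, the mean square of regime in log2 CPM was 0.209 and that of the residual 0.216 with 12 libraries, against 0.405 and 0.148 with 10.

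For the 10 libraries the naming rule gave 2 identifiers in each direction, all with an edgeR adjusted p of 0.0654, so they did not pass. MD10G1080000 was at 80.6, 143, 58.2, 126 and 111 CPM in the drought libraries of blocks 1 and 3 at the first sampling and blocks 1, 2 and 3 at the third. Its well-watered partners were at 9.86, 32.0, 9.27, 48.9 and 30.8 CPM. Every one of the 5 drought libraries lay above every well-watered one, and the log2 change was 2.21 (SE 0.23). In block 2 at the first sampling it was at 24.4 CPM in the library labelled drought and 201 CPM in the library labelled well-watered, the highest root value of the 12. MD05G1238900 was at 4.36, 3.09, 2.55, 1.34 and 17.3 CPM in the same drought libraries and at 1.31, 0.765, 0.673, 0.491 and 4.38 CPM in their partners, a log2 change of 1.83 (SE 0.18). These groups overlapped, because both libraries of block 3 at the third sampling were high, while the within-block log2 differences lay between 1.37 and 1.97. In block 2 at the first sampling it was at 0.69 CPM in the library labelled drought and 3.33 CPM in the library labelled well-watered.

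MD15G1205100 was at 1.74, 1.61, 5.03, 4.71 and 3.26 CPM in the 5 drought libraries, in the same order, and at 26.5, 12.8, 23.4, 26.2 and 12.5 CPM in their well-watered partners. The groups did not overlap, and the log2 change was -2.69 (SE 0.29). The pair left out had 14.3 CPM in the library labelled drought and 1.77 CPM in the library labelled well-watered. In leaf this gene was at or near 0, with at most 0.0589 CPM. MD07G1227100 was at 0.85, 1.94, 2.33, 0.928 and 0.613 CPM in drought roots and at 4.54, 10.7, 7.28, 4.41 and 1.79 CPM in their partners, a log2 change of -2.07 (SE 0.22), and the groups overlapped. The pair left out had 4.17 CPM in the library labelled drought and 0.597 CPM in the library labelled well-watered. In that pair the log2 difference was -3.04 for MD10G1080000, -2.20 for MD05G1238900, 2.98 for MD15G1205100 and 2.71 for MD07G1227100, each against the sign of the other 5.

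**Figure D4:**
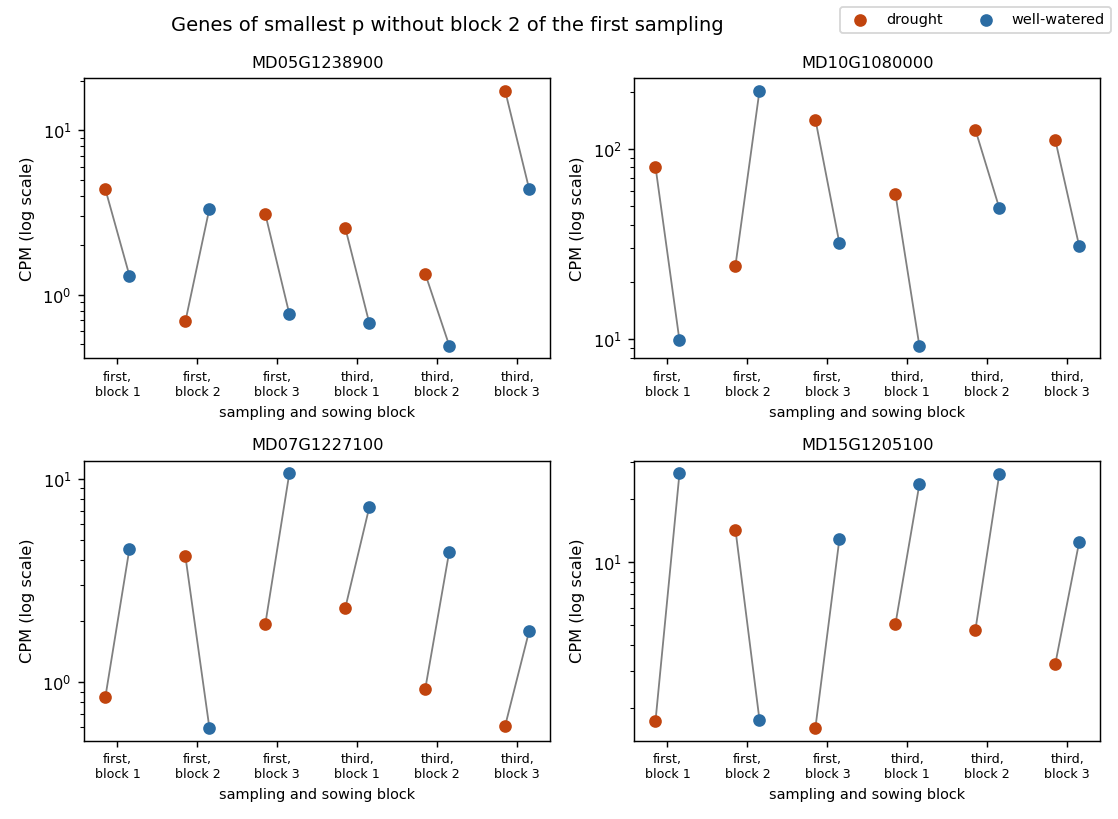
CPM on a log scale of the 4 named genes of the fit without block 2 of the first sampling, with the drought library (orange) left of its well-watered partner (blue) in each pair; the pair left out of the fit is also drawn. The line of block 2 at the first sampling slopes against the other 5 in every gene.

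Over all genes, 49 of the 24697 (0.198%) were at least 2-fold apart in the same direction in each of the 5 other pairs, 22 higher (0.0891%) and 27 lower (0.109%) in drought. In the pair that this rule did not use, all 22 were lower and all 27 higher in the library labelled drought. Over the 24697 genes, 47.3% were lower and 52.7% higher in that pair. The median log2 difference there was -5.53 for the 22 and 3.46 for the 27. Leaving out any 1 of the other pairs instead gave 0 such genes. Those sets of 5 still included block 2 of the first sampling, whose differences correlated negatively with every other pair (-0.83 to -0.18). Agreement at 2-fold was thus unlikely from the outset, and this 0 is no benchmark. Members just inside and just outside the limit had smallest differences of 1.06 and 0.999 on the log2 scale on the higher side, and 1.02 and 0.993 on the lower side. Same-signed differences in the 5 pairs were found for 3798 genes (15.4%), 1798 higher (7.28%) and 2000 lower (8.1%) in drought. Random signs are alike more often over 5 pairs than over 6, so this share cannot be set directly against that of all 6 pairs. Of the 3798, 81.7% had the opposite sign in block 2 of the first sampling. The corresponding shares for the other 5 pairs, each left out in turn, were 25.5% to 61.5%. Those sets of 5 again included block 2 of the first sampling, so their shares are no benchmark for the 81.7%. Block 2 was singled out because it was known to go the other way, so the 81.7% is a description and not independent evidence.

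Together the 22 genes took 122 to 893 CPM in the 5 drought libraries, with a median of 644, and 24.2 to 183 CPM in their well-watered partners, with a median of 70.3. In block 2 at the first sampling they took 69.8 CPM in the library labelled drought and 1176 CPM in the library labelled well-watered. The 27 genes took 42.8 to 243 CPM in the drought libraries and 218 to 796 CPM in the well-watered ones, with medians of 152 and 534. They took 531 CPM in the library labelled drought and 53.3 CPM in the library labelled well-watered of the pair left out. These sums are CPM without TMM scaling. Most of the 27 were scarce in leaf: the median over the 18 leaf libraries was under 1 CPM for 23 of them (85.2%) and for 12 of the 22 (54.5%), against 9.91% of the 24697 genes. In the only next-year block with root libraries of both regimes, 19 of the 22 (86.4%) were higher in plants with a drought history. The share was 56.7% over all 24697 genes. The median log2 difference of the 22 was 1.82, against 0.07 over the 24697. Of the 27, 13 (48.1%) were higher in that pair, with a median of -0.05. This is 1 pair of libraries with no replicate, and it was not tested. The 22 took 305 CPM in its drought-history library and 103 CPM in its well-watered partner. The other drought-history library, of block 1, held 39.0 CPM, below the 78.2 CPM of the well-watered library of block 2.

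At the first drought, all 3 pairs together gave 0 calls (0%) among 32676 genes by edgeR, 246 (0.753%) under 0.05 before adjustment and 0 calls by DESeq2. In the fit of 10 libraries, where blocks 1 and 3 stand for this sampling, 601 of 32958 genes (1.82%) passed the test at the first drought, of which 307 (0.931%) rose and 294 (0.892%) fell. Leaving out only the library labelled drought of block 2 gave 608 calls, and leaving out only its well-watered partner gave 602. With a term for each block of each sampling, a library without its partner adds nothing to the contrast. Both fits therefore nearly repeat the fit with 601 calls and cannot tell the 2 libraries apart. The 307 had a median change of 4.73-fold and the 294 one of 3.11-fold. At least 2-fold changes were found for 299 and 272 of them. The estimate of the spread was shared with the third-sampling pairs, and leaving out block 2 was chosen with earlier results known, so these calls are not independent evidence either. In block 2, which this fit did not use, 0 of the 307 were higher in the library labelled drought, with a median log2 difference of -2.57, and 293 of the 294 were higher, with a median of 1.56. Over all 32958 genes, 53.3% were higher in that pair.

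The third-sampling pairs do not enter this contrast but do enter its estimate of the spread. Genes whose third-sampling pairs were alike were therefore more likely to be called, and the shares below are a description and not independent support. At the third drought the 307 had a median log2 change of 0.59, and 87.6% of them lay above 0, against 51.2% of all genes tested. In 191 of the 307 (62.2%) all 3 third-sampling pairs were positive, against 16.0% of all genes. By pair, 235, 259 and 255 were higher in drought in blocks 1, 2 and 3. An unadjusted p under 0.05 at the third drought was reached by 151 of the 307 as higher (49.2%) and 3 as lower, against 3.87% and 4.39% of all genes. Of the 294, 98 were lower (33.3%) and 23 higher (7.82%) at the same limit, so the share in the opposite direction was also above that of all genes. The 294 had a median of -0.29, and 72.8% lay below 0, against 48.8% of all genes. In 138 of the 294 (46.9%) all 3 pairs were negative, against 16.1% of all genes. Block 1 at the third sampling carried least of this, with 134 of the 294 higher in drought and a median log2 difference of -0.06.

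Taken alone, the third drought gave 0 calls (0%) by edgeR among the 12 libraries, 1297 genes (3.97%) under 0.05 before adjustment and 29 calls by DESeq2. Without block 2 of the first sampling, which does not enter this contrast but does enter the estimate of the spread, edgeR called 2 of 32958 genes (0.00607%), 1 in each direction (0.00303%). Both were named after their values were seen. One is MD15G1205100 again, with a log2 change of -2.21 at the third drought (SE 0.22, edgeR adjusted p = 0.0324) and -3.47 at the first in that fit (edgeR adjusted p = 0.00197). The other, MD08G1249100, was at 0.283, 28.8 and 9.61 CPM in the drought roots of blocks 1, 2 and 3 at the third sampling and at 0, 0.0351 and 0.138 CPM in the well-watered roots. Blocks 2 and 3 carried its difference (log2 change 7.94, SE 0.70, edgeR adjusted p = 0.0324), and a fitted change of a gene this near 0 depends on the prior count. At the first sampling it was at most 0.697 CPM in any library.

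The difference between the droughts was tested itself. The root effect at the third drought minus that at the first differed for 0 of 32676 genes (0%) by edgeR, with a smallest adjusted p of 1. Before adjustment 534 genes (1.63%) had p under 0.05, and DESeq2 called 1. Without block 2 of the first sampling 17 of 32958 genes (0.0516%) differed, 8 (0.0243%) more positive and 9 (0.0273%) more negative at the third drought. Among all 12 libraries the genes of smallest p, all with an edgeR adjusted p of 1, were MD09G1111300 and MD17G1147700, more positive at the third drought, and MD13G1204700 and MD11G1028800, more negative. MD17G1147700 was at 25.3, 35.9 and 17.5 CPM in drought roots of the third sampling and at 7.59, 16.0 and 3.65 CPM in well-watered roots, against 12.3, 11.2 and 12.4 CPM in drought and 9.02, 14.1 and 18.5 CPM in well-watered roots of the first. MD13G1204700 was at 7.32, 11.1 and 6.88 CPM in drought roots of the third sampling and at 20.7, 24.2 and 13.7 CPM in well-watered roots. At the first sampling it was at 13.7, 12.5 and 9.45 CPM in drought and at 13.1, 12.0 and 9.13 CPM in well-watered roots, nearly level in all 3 blocks. MD09G1111300 had log2 changes of 1.03 at the third drought and -0.35 at the first. MD11G1028800 had -1.02 and 0.81, and it was at 0 CPM in every leaf library.

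Genes that responded to the first drought in leaf had small median differences of the same sign in root. In the 6 leaf libraries of that sampling, with block as a term, 4210 of 30297 genes (13.9%) passed edgeR's adjusted test, 1980 (6.54%) as higher and 2230 (7.36%) as lower in drought. Their median leaf changes were 2.16-fold up and 2.19-fold down. Of the 1980, 1850 were tested in root, with a median pooled log2 change of 0.17, against 0.01 over the 28744 genes tested in both tissues, and 0 passed the root test. Of these 1850, 169 (9.14%) had an unadjusted p under 0.05 and were higher in drought, and 8 (0.432%) were lower, against 2.39% and 1.74% of the 28744. Of the 2230, 2019 were tested in root, with a median of -0.11. For these, 16 (0.792%) were higher and 116 (5.75%) lower at an unadjusted p under 0.05.

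By pair, the root medians of the leaf genes that rose were 0.39, 0.06 and 0.01 for blocks 1, 2 and 3 at the first sampling and 0.24, 0.17 and 0.17 at the third. Those of the leaf genes that fell were -0.25, 0.11 and 0.08 at the first sampling and -0.39, -0.15 and -0.10 at the third. The median of the first list lay above that of the second in all 3 pairs of the third sampling and in block 1 of the first, and below it in blocks 2 and 3 of the first. Without block 2 of the first sampling the medians were 0.21 and -0.16, and 413 of the 1850 (22.3%) were higher at an unadjusted p under 0.05, against 7.20% of all genes tested. The 601 root genes called from blocks 1 and 3 at the first drought were also looked up in leaf. Of the 307 that rose, 241 were tested in leaf, where 62 (25.7%) rose and 9 (3.73%) fell. Of the 294 that fell, 206 were tested in leaf, where 32 (15.5%) rose and 18 (8.74%) fell. Over all 28826 genes tested in both, 6.44% rose and 7.05% fell in leaf, so the share of the 294 that fell in leaf lay near that of all genes, and the larger share rose, against their direction in root.

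**Figure D5:**
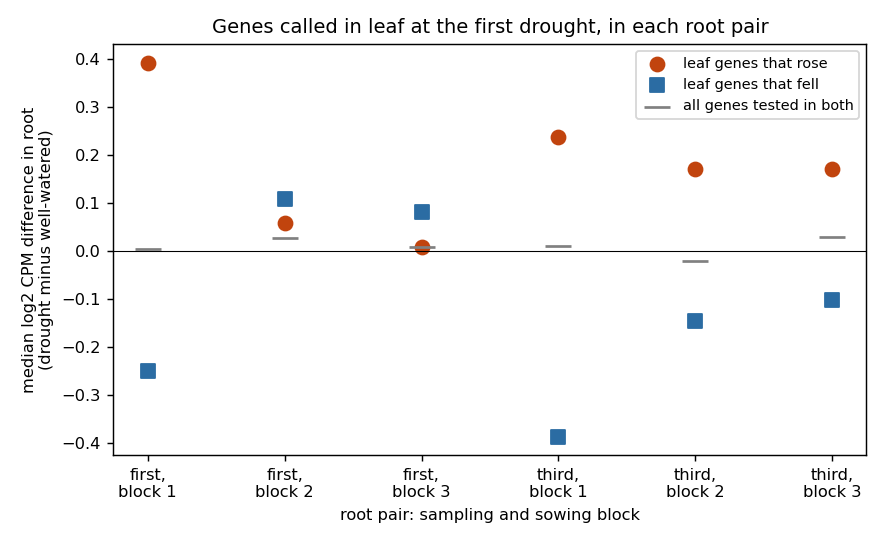
Median log2 CPM difference (drought minus well-watered) in each of the 6 root pairs, for leaf genes that rose (circles) or fell (squares) at the first drought and for all genes tested in both tissues (bars). The circles lie above the squares by most in block 1 of both samplings, at 0.39 against -0.25 and 0.24 against -0.39, and below them in blocks 2 and 3 of the first sampling.

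No difference in the make-up of the libraries was detected against the spread between pairs. Drought libraries had 31639 ± 877 genes with at least 10 counts and well-watered libraries 31235 ± 639 (SD, n = 6 each), higher in drought in 5 of 6 pairs (exact two-sided sign-flip permutation p = 0.281). This number was not corrected for depth. In block 2 at the third sampling, 30378 genes at 30531790 counts in drought stood against 32049 at 60194325. In block 3 of that sampling, 32219 at 55055582 stood against 30524 at 29963017. In block 3 at the first, 31720 at 39805125 stood against 31714 at 43275271. The 50 most abundant genes of a library took 13.1% ± 2.13 of its counts in drought and 14.3% ± 1.30 in well-watered roots (SD, n = 6 each), higher in drought in 2 of 6 pairs (exact two-sided sign-flip permutation p = 0.344). The difference of -1.18 percentage points was -0.514 without the pair of block 1 at the first sampling, -0.71 without block 3 at the third and -1.84 without block 1 at the third. Without the pair of block 2 at the first sampling it was -1.31. The permutation tests here used all 6 pairs as labelled, that pair included. Total counts gave p = 0.781 in the same exact permutation test, the leaf list 0.344 and the root list 0.562. Over the 6 measures tested the smallest Benjamini-Hochberg adjusted p was 0.516, where 6 pairs allow p as small as 0.03125.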

How the data were processed

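The libraries were strand-specific and made from polyadenylated RNA, with paired reads of 100 bp, per the labels' protocols. The authors deposited 1 table of estimated counts per gene for 52311 identifiers, all whole numbers. Per the submitters' processing notes FastQC, Salmon, DESeq and DESeq2 had been used, with no version listed. Neither build nor annotation is given in the sources used here, and the same holds for the plants behind a library. Salmon splits reads among similar transcripts, which makes values of near-identical genes uncertain. RefSeq's table of GDT2T_hap1 held 0 of the identifiers, so lists that need gene names were not run and no sequence is shown.

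Counts were fitted with edgeR 4.0.16 in R 4.3.3 (quasi-likelihood, robust, TMM scaling, filterByExpr), with regime and the 6 combinations of sampling and block as terms. Blocks pair the libraries because the labels define a replicate as a sowing. As a check, the departures of both libraries of a block from the means of their groups correlated across genes at 0.32, 0.46 and 0.77 in the third sampling (blocks 1, 2 and 3) and at -0.32, -0.82 and -0.40 in the first. Standard errors are the log2 change over the square root of F. P-values were adjusted over all genes tested. CPM are TMM-scaled, and log2 CPM used a prior count of 2. The edgeR steps were run on simulated counts with 200 changed genes and no reversed pair. The outcome is not given here, and such runs do not show how a reversed pair acts on the fits. Alternatives covered DESeq2 1.42.0, limma 3.58.1, scaling, filters, the block and left-out libraries. Per comparison and direction the 2 largest changes that passed were to be named, at a minimum mean log2 CPM of 1 and with 1 sign in all pairs, and otherwise the 2 of smallest p. Members, lists and rules were chosen with earlier results of these data known.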

Additional observations from a re-analysis of the deposited data

Results flagged for a closer look

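Among 36 sets of 6 values for the named genes, 6 had a lowest or highest value far from the nearest of the others. Independent sets would give about 1 in 20 by chance, but these sets overlap within a gene, and the genes were chosen by their values. The count therefore cannot be set against that rate. Of these 6 values, 5 belong to block 2 of the first sampling. The drought minus well-watered log2 differences of that pair were the lowest of the 6 pairs for MD05G1238900, at -2.20, and for MD10G1080000, at -3.04. They were the highest for MD07G1227100, at 2.71, and for MD15G1205100, at 2.98. These genes were named from the other 5 pairs, so that their differences have 1 sign there follows from the rule that chose them. The pair of block 2 was left out of that rule because it was known to go the other way, so these flags are not independent support. For MD15G1205100 the library labelled well-watered of block 2 at the first sampling was also the lowest of its regime, at 0.86 log2 CPM. The remaining value was the drought library of block 3 at the third sampling for MD02G1132400, at 3.81 log2 CPM. Its well-watered partner was the lowest of its regime too, at 20.4 CPM.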

How the results depend on the processing

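Over all 12 libraries the pooled effect gave 0 calls under every alternative run, each library and each pair left out included. The other counts depended on the setting. Without block 2 of the first sampling, where edgeR called 0, upper quartile scaling gave 7 calls (1 higher, 6 lower), no filter on low counts 45, DESeq2 1368, and leaving out single libraries 0 to 18. The first drought gave 0 calls, against 0 to 608 with single libraries left out and 601 without both libraries of block 2. The third drought gave 0, against 29 with DESeq2, 0 to 2 with single libraries left out and 2 without that pair. The difference between droughts gave 0, against 1 with DESeq2, 0 to 17 with single libraries left out and 17 without that pair. The fits without that pair for single droughts were chosen after seeing the data. The causes were not tested. Where 5 or fewer genes were called, they are named here after their values were seen. DESeq2 called MD02G1228800 for the difference between droughts. Without either third-sampling library of block 2, MD17G1209800 was called. Without either of block 1, MD12G1200200, MD14G1070200, MD01G1068100 and MD01G1158500 were. Without the sowing block as a term (no pairing of libraries) the pooled effect gave 0 calls, with 938 genes at an unadjusted p under 0.05 for 12 libraries and 2760 for 10. The first drought, the third drought and their difference over 12 libraries also gave 0 calls without the block, and their fits without block 2 of the first sampling were not run without it. No named gene changed sign. The 4 genes named for the 10 libraries passed the threshold in 2 to 5 of 19 alternatives, and the other 8 in none. In the fits with the block as a term, a library left out leaves its partner without a counterpart, so the fit nearly repeats that without both. Among the 10 libraries, changes of 4.62-fold for MD10G1080000 and 6.46-fold for MD15G1205100 did not pass with edgeR, so genes not called cannot be taken as unchanged.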

Other observations

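Genes with 1 direction in all 6 root pairs had mostly the opposite direction in 1 next-year pair of root libraries. They were 2.82% of the 24697 genes, near the share that random signs would give. In block 3, the only block with next-year root libraries of both regimes, 56 of the 362 genes higher in drought (15.5%) were higher in plants with a drought history, with a median log2 difference of -0.38. Of the 334 genes lower in drought, 285 (85.3%) were higher there, with a median of 0.40, against 56.7% and 0.07 over the 24697 genes. Larger sets, which include these genes, had 1 direction in the 5 pairs without block 2 of the first sampling. Of the 1798 higher ones 52.6% were higher in that next-year pair, and of the 2000 lower ones 66.9%. Of the 22 and 27 genes at least 2-fold higher and lower in the 5 pairs, 86.4% and 48.1% were higher there. This is 1 pair of libraries with no replicate, and it was not tested. In leaf at the first sampling the 362 and the 334 genes had median log2 differences of 0.32 and -0.27, and at the third sampling -0.02 and 0.04.

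The 1368 genes that DESeq2 called without block 2 of the first sampling mostly had the opposite sign in that pair. This held for 592 of the 620 higher genes (95.5%) and 709 of the 748 lower ones (94.8%). Their median log2 differences there were -1.71 and 1.11. Over the 24697 genes with a mean log2 CPM of at least 1, 47.3% were lower and 52.7% higher in that pair. The pair was left out because it was known to go the other way, so these shares are a description and not independent evidence.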
